A study of Mus musculus with 6 samples.

Results

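The machinery described here carries newly made secretory proteins into the endoplasmic reticulum (ER), attaches their N-linked sugars and moves them in coated vesicles between the ER and the Golgi apparatus. It was taken as a list of 43 named genes in 4 groups, namely 19 of the translocon and signal recognition, 6 of the oligosaccharyltransferase, 12 of the COPII coat and its cargo, and 6 of the COPI coat. Each gene was followed through the probe sets whose platform annotation names that gene alone. This gave 93 probe sets for 42 of the 43 genes, out of 45037 probe sets and 18193 genes in all, and the expression of Sec61g was not analysed here. RNA of whole pancreas was measured on 6 Affymetrix arrays, 3 from mice without Rkip-1 (KO) and 3 from wild-type mice (WT). All mice were 8 weeks old, on a C57BL/6 background and from one colony, and the labels give neither sex, nor the way the allele was made, nor any treatment. The samples of a group are called biological replicates, without a statement of how many animals gave each one. Rkip-1 is the product of Pebp1 and restrains signalling from Raf to MEK and ERK. The series was set up, by its title, around beta cell growth, although whole pancreas is mostly acinar tissue.

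An acinar cell of the pancreas is among the most active producers of secreted protein in the body, and its cytoplasm is filled with rough ER. A signal peptide that leaves the ribosome is bound by the signal recognition particle, which docks at its receptor on the ER and hands the chain to the Sec61 channel, where signal peptidase and the oligosaccharyltransferase act on it. COPII vesicles then carry the folded cargo towards the Golgi, and COPI vesicles bring ER residents and cargo receptors back.

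The values are log2 intensities after RMA, a method that subtracts background and gives the arrays a common distribution, so a log2 difference of 1 is a doubling and any shift common to the majority of genes is lost. Probe sets of different genes have different brightness for the same amount of RNA, so levels are compared only between arrays. Array medians lay between 2.97 and 3.02 and upper quartiles between 4.53 and 4.56, and correlations between arrays ranged from 0.989 to 0.993. Pebp1 measured 5.89, 6.50 and 5.71 in KO replicates 1, 2 and 3 and 9.81, 10.01 and 9.81 in WT replicates 1, 2 and 3, so the arrays matched their labels. The 13 measured acinar markers lay between 13.65 and 14.57 on all arrays, close to the highest value of the table, as fits the labelled tissue. In whole tissue, fewer cells of a type and less RNA per cell cannot be told apart. Differences are KO minus WT, tested with limma, and a gene passed at a p below 0.05 after Benjamini-Hochberg adjustment over the 45037 probe sets.

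The stretches before the annotated start of 5 genes are shown because they belong to the COPII genes with the smallest p-values, Sec24d, Sec24a and Sec23b, and to the 3 members that carry the letters TGACGTG there. Those letters are the core of an element bound by XBP1 and ATF6, transcription factors of the unfolded protein response that are known to raise genes of this machinery. Each line gives the last 80 bases before the start on the strand of the gene, from RefSeq on mouse build GRCm38.p6, and capitals mark TGACGTG on either strand.
Sec24d, chr3:123267416-123267495, plus strand: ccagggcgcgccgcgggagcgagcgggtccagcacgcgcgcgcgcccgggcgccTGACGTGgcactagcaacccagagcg
Sec24a, chr11:51756835-51756914, minus strand: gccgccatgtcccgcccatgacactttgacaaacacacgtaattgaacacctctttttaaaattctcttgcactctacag
Sec23b, chr2:144556149-144556228, plus strand, first of its 2 annotated starts: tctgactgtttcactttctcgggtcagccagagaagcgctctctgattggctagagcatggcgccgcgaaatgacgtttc
Copb1, chr7:114254681-114254760, minus strand: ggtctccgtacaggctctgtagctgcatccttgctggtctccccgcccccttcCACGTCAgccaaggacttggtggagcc
Srpr, chr9:35211123-35211202, plus strand: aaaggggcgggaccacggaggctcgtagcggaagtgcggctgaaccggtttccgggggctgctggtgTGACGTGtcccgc

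The 250 bases before the start were available for 37 of the 43 genes, in 40 windows. TGACGTG on either strand lay in 3 of the 40, in Sec24d from base -26 to -20, in Copb1 from -27 to -21 and in Srpr from -13 to -7, against 1.65% of all 32851 such windows. The letters CCAAT on either strand, bound by the factor NF-Y, lay in 18 of the 40 windows, those of 17 genes, against 33.8% of all windows. The complete ER stress response element, CCAAT and CCACG with 9 bases between them, lay in 0 of the 40 windows and in 0.113% of all windows. Its shorter form, ATTGG and CCACG with 1 base between them, also lay in 0 of the 40 windows and in 0.0304% of all. These are matches of letters in short windows and show no binding. In the 3 genes with TGACGTG the log2 differences were -0.51 for Sec24d, -0.13 for Copb1 and 0.01 for Srpr, none past the threshold.

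No gene of the list passed the threshold. By the brightest probe set of each gene, 0 of 42 passed by limma, where 0.132% of all genes did, and the smallest adjusted p was 0.35. Over all their probe sets 0 of 93 passed, where 0.0977% of all probe sets did. At an unadjusted limma p under 0.05, 6 of the 42 were lower in KO and 0 higher, where 5.58% of all genes were lower at that level. The differences were small, from -0.51 to 0.07 on the log2 scale. For 39 of the 42 genes the 95% interval lay inside a 1.5-fold change in either direction, and for Sec24d, Sec23b and Srprb it reached past 1.5-fold on the lower side. Intervals inside that range were about as common elsewhere, in 16669 of all 18193 genes and in 1942 of the 2160 genes of mean 7 or more.

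**Figure D1:**
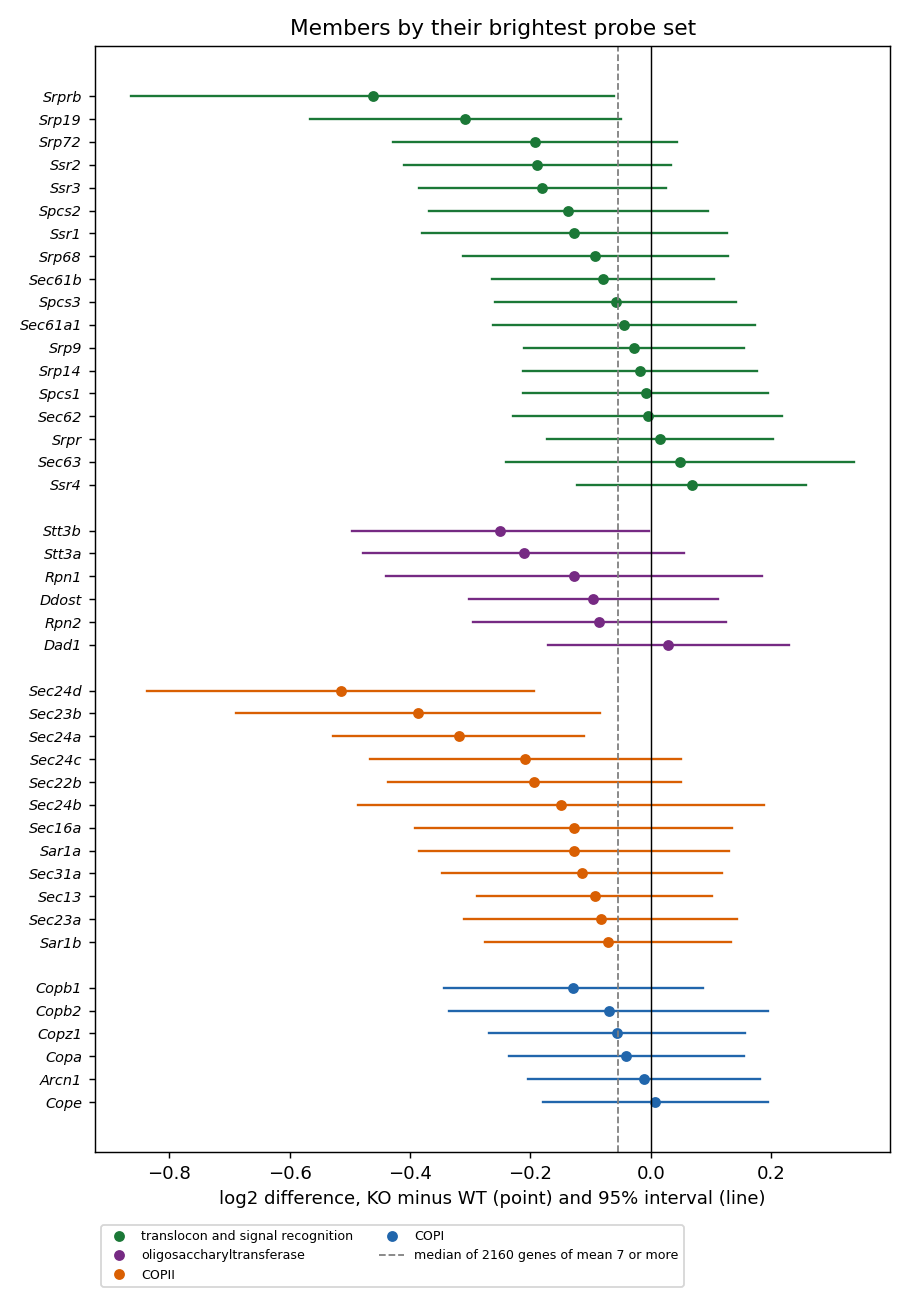
Log2 difference KO minus WT for the 42 measured genes by their brightest probe set, grouped and coloured by function, with the 95% interval from limma as a line. Points lie from -0.51 to 0.07, 37 of them below 0, and the dashed line marks the median of -0.055 over the 2160 genes of mean 7 or more.

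The signs ran largely one way. Of the 42 genes, 37 were lower and 5 higher in KO, with a median difference of -0.09, where 50.2% of all genes were lower and their median was 0.00. The genes of this list are bright, however, 38 of them with a mean of 7 or more on the log2 scale. Of all 2160 genes that bright, 68.1% were lower and their median was -0.055, and among the 38 members 33 were lower, with a median of -0.09. In 5 of the 42 genes, or 11.9%, each KO array was lower than each WT array, against 7.56% of all genes. All 5 were among the 38 bright members, or 13.2% of them, against 16.6% of the genes of mean 7 or more. An unadjusted p under 0.05 on the lower side was met by 5 of the 38 bright members, against 8.98% of bright genes. After a second quantile normalization the median of the bright genes was 0.00, with 50.4% of them lower, and 30 of the 42 members, or 71.4%, were lower with a median of -0.05. With equal array medians 39 of the 42, or 92.9%, were lower, beside 73.3% of the bright genes and 56.3% of all genes.

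The arrays did not split cleanly by genotype. Each gene was centred on its mean over the 6 arrays, and the median of the 42 genes was then taken on each array. This median was -0.06, -0.12 and 0.02 in KO replicates 1, 2 and 3 and 0.13, 0.05 and -0.03 in WT replicates 1, 2 and 3. The groups overlap, because KO replicate 3 lay above WT replicate 3. WT replicate 1 held the highest of the 6 values in 25 of the 42 genes, and KO replicate 2 the lowest in 20. Over all genes of mean 7 or more the same medians were -0.04, -0.04 and 0.01 in KO and 0.01, 0.05 and 0.01 in WT. Without WT replicate 1 the members' median was -0.06, with 35 of 42 lower, and that of the bright genes was also -0.06, with 71.1% lower. With that array left out the medians were alike, while the share of lower genes was still 83.3% among the members. Without WT replicate 3 the medians were -0.13 for the members and -0.06 for the bright genes, and without KO replicate 3 they were -0.13 and -0.07.

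**Figure D2:**
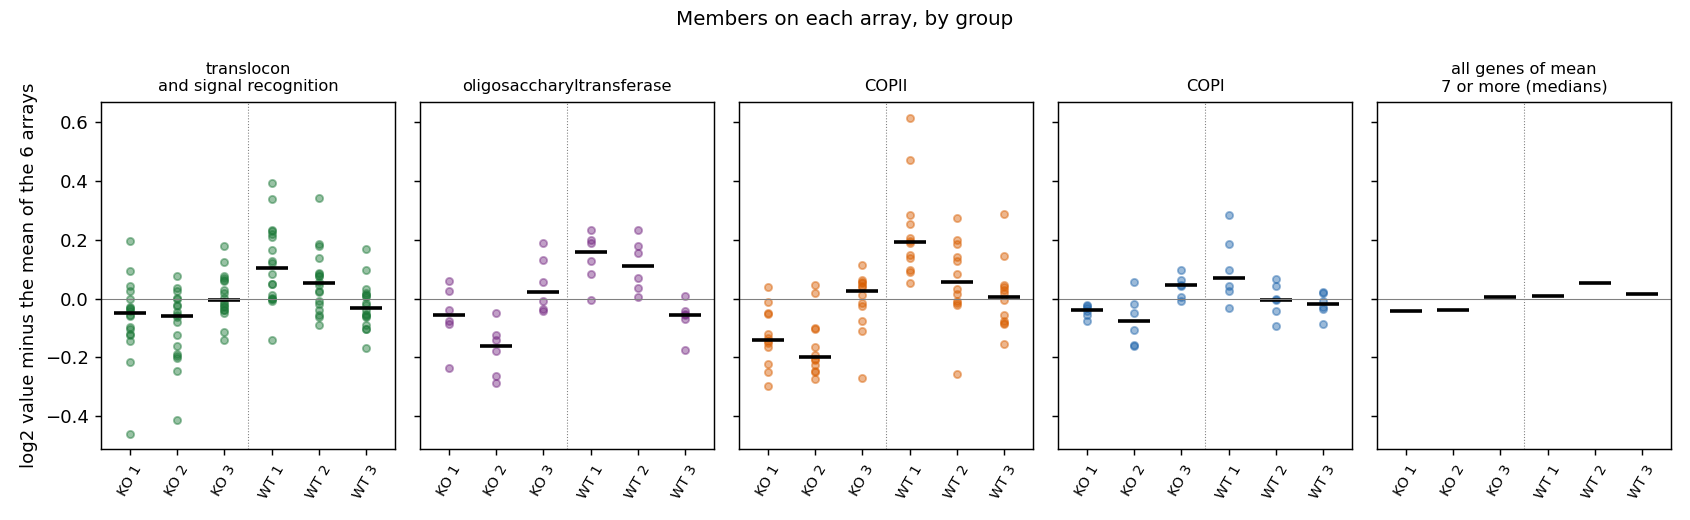
Each point is a gene on an array, as its log2 value minus its own mean over the 6 arrays, in 4 panels by group, and black bars are the medians per array. The rightmost panel gives the medians of all genes of mean 7 or more, which lie between -0.04 and 0.05, and WT replicate 1 has the highest median in each of the 4 groups.

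COPII was the group with the lowest median. All 12 of its genes were lower in KO, from -0.51 to -0.07, with a median of -0.14, and 3 had an unadjusted p under 0.05. Of all genes of mean 7 or more, as 9 of the 12 are, 68.1% were lower and 8.98% lower at that level. All 12 stayed lower under each alternative run, apart from the removal of probe sets that may bind several transcripts, which left 11 of them to measure, all lower. The median was -0.08 without WT replicate 1. On single arrays the centred medians of the group were -0.14, -0.20 and 0.03 in KO and 0.19, 0.06 and 0.01 in WT.

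Sec24d, one of the 4 Sec24 proteins that pick cargo for the COPII coat, measured 8.16, 8.25 and 8.18 in KO replicates 1, 2 and 3 and 9.07, 8.58 and 8.48 in WT replicates 1, 2 and 3. All KO values lay below all WT values, and WT replicate 1 stood well above the other arrays. The means were 8.20 ± 0.05 and 8.71 ± 0.31 (SD, n = 3 each), a log2 difference of -0.51 (95% interval -0.84 to -0.19, adjusted p 0.35 by limma), or a 1.43-fold lower level that did not pass. Without WT replicate 1 it was -0.34, and over all alternatives its adjusted p ran from 0.206 to 0.6.

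Sec24a, its paralogue with overlapping cargo choice to Sec24b, measured 7.25, 7.15 and 7.33 in KO and 7.66, 7.49 and 7.55 in WT. Its groups did not overlap, and the 3 WT arrays were close to each other. The difference was -0.32 (-0.53 to -0.11, adjusted p 0.374 by limma). A second probe set of Sec24a, at 2.52 to 2.69 on all arrays and thus below the array medians, showed 0.01, and the mean of both gave -0.16. The other Sec24 genes were Sec24c, at 7.09, 7.23 and 7.38 in KO and 7.43, 7.61 and 7.28 in WT, and Sec24b. Sec24b differed by -0.15 (-0.49 to 0.19) and Sec24c by -0.21 (-0.47 to 0.05), both with overlapping groups.

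Sec23b, which forms the inner layer of the coat together with Sec24 and is the partner of Sec24 that pancreas is known to depend on in mice, measured 8.44, 8.41 and 8.55 in KO and 9.13, 8.86 and 8.57 in WT. The groups did not overlap, but WT replicate 3 lay only just above KO replicate 3. The difference was -0.39 (-0.69 to -0.09, adjusted p 0.454 by limma), and -0.25 without WT replicate 1. Its paralogue Sec23a differed by -0.08 (-0.31 to 0.14). The difference between the paralogues was not tested.

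The remaining COPII genes showed smaller differences with overlapping groups. Sec22b, a SNARE protein that helps these vesicles fuse, measured 7.84, 7.66 and 7.87 in KO and 8.07, 8.07 and 7.80 in WT, a difference of -0.19, and a second probe set gave -0.26 with an unadjusted limma p of 0.0276 and no overlap. Sec16a, the scaffold of ER exit sites, differed by -0.13, and the outer coat proteins Sec31a and Sec13 by -0.11 and -0.09. The GTPases that start coat assembly, Sar1a and Sar1b, differed by -0.13 and -0.07, and a second Sar1a probe set by 0.07.

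**Figure D3:**
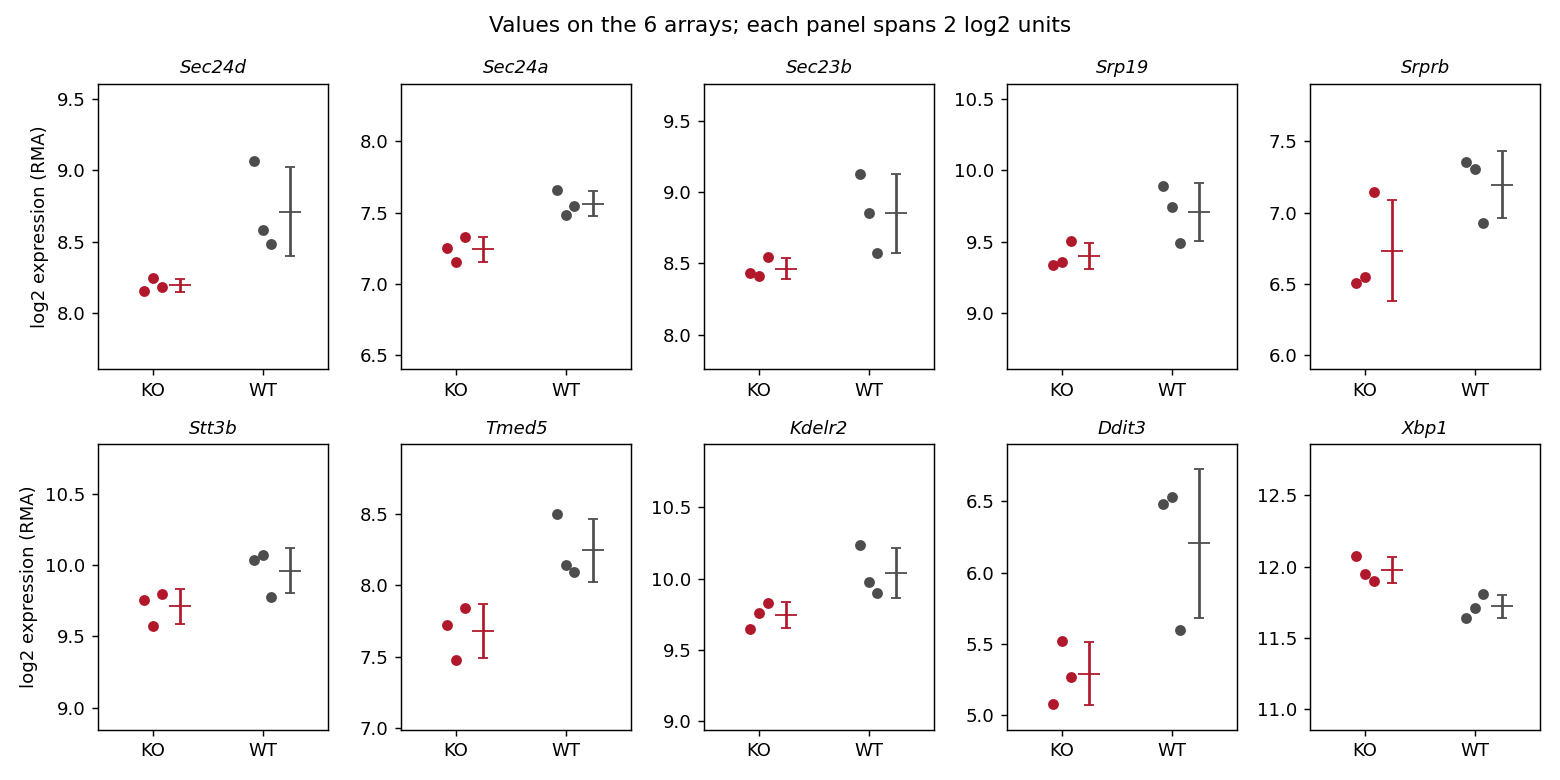
Log2 values on the 6 arrays for 6 members and for Tmed5, Kdelr2, Ddit3 and Xbp1, other genes of the pathway, with mean and SD beside the 3 points of each genotype; points run from replicate 1 to 3, and each panel spans 2 log2 units. Sec24d, Sec24a, Sec23b, Tmed5, Kdelr2 and Ddit3 have all KO values below all WT values, and Xbp1 has them above.

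In the translocon and signal recognition group, 15 of 18 measured genes were lower and 3 higher, with a median of -0.07, and 2, or 11.1%, had an unadjusted p under 0.05. The shares over genes of mean 7 or more, as 17 of the 18 are, were 68.1% lower and 8.98% lower at that level. By the brightest probe sets the lowest differences were those of Srprb and Srp19. Srp19, a protein of the signal recognition particle that helps to assemble it on its RNA, measured 9.34, 9.36 and 9.50 in KO and 9.89, 9.74 and 9.49 in WT. WT replicate 3 lay below KO replicate 3, so the groups overlapped. Its difference was -0.31 (-0.57 to -0.05, adjusted p 0.495 by limma), and -0.22 without WT replicate 1.

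Srprb, the membrane subunit of the particle's receptor, measured 6.51, 6.55 and 7.14 in KO and 7.36, 7.31 and 6.92 in WT. KO replicate 3 lay above WT replicate 3, so the groups overlapped. The difference was -0.46 (-0.86 to -0.06, adjusted p 0.512 by limma), and it ran from -0.35 to -0.67 with single arrays left out. Its other 2 probe sets gave -0.18 and -0.16, and the mean of all 3 gave -0.27. The other subunit of the receptor, Srpr, lay between 9.59 and 9.70 on all arrays, with a difference of 0.01 (-0.17 to 0.20). A dim second Srpr probe set, below the array medians, gave 0.22.

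The other proteins of the particle were Srp72 at -0.19, Srp68 at -0.09, Srp9 at -0.03 and Srp14 at -0.02. Srp9 had a second probe set that measured 8.11, 8.18 and 8.19 in KO and 8.60, 8.57 and 8.26 in WT. There the groups did not overlap, and the difference was -0.31 with an unadjusted limma p of 0.018, against -0.03 (-0.21 to 0.15) at the brighter one.

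The channel itself showed little difference by its brightest probe sets. Sec61a1, the pore-forming subunit, measured 10.45, 10.27 and 10.50 in KO and 10.48, 10.51 and 10.37 in WT, a difference of -0.04 (-0.26 to 0.17). Sec61b, a small subunit, lay between 11.36 and 11.39 in KO and between 11.42 and 11.50 in WT, so its groups did not overlap, with a difference of -0.08 (-0.26 to 0.10). Sec62 and Sec63, which assist the entry of some chains, differed by -0.01 and 0.05. Among the translocon-associated proteins, Ssr3 measured 11.03, 10.94 and 10.95 in KO and 11.27, 11.11 and 11.08 in WT, without overlap, and its difference was -0.18 (-0.39 to 0.03, adjusted p 0.627 by limma). Ssr2 differed by -0.19 and Ssr1 by -0.13. Ssr4 had the highest difference of the group, 0.07 (-0.12 to 0.26), with values of 11.87, 11.82 and 11.75 in KO and 11.79, 11.72 and 11.73 in WT that overlapped. The signal peptidase subunits Spcs1, Spcs2 and Spcs3 differed by -0.01, -0.14 and -0.06.

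Of the 27 genes with several probe sets, 16 had all of them on one side of 0. In 3 genes the probe sets pointed both ways with an unadjusted limma p under 0.05 at one of them, namely Sec61a1, Rpn1 and Sec24a. Sec61a1 had 6 probe sets. The 5 with the higher signal differed by -0.04, -0.12, -0.14, -0.38 and -0.39, and the dimmest, with values of 4.97, 4.32 and 4.69 in KO and 4.63, 4.20 and 3.55 in WT, differed by 0.53 (-0.03 to 1.09). In order of falling signal the first 5 moved further below 0, so the size for this gene depends on the probe set read. Over all genes, 80 of the 93 probe sets had a mean at or above the upper quartile of the arrays, and 70 of these were lower in KO. Of the other 13, which lie where signal and background are hard to separate, 6 were lower.

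**Figure D4:**
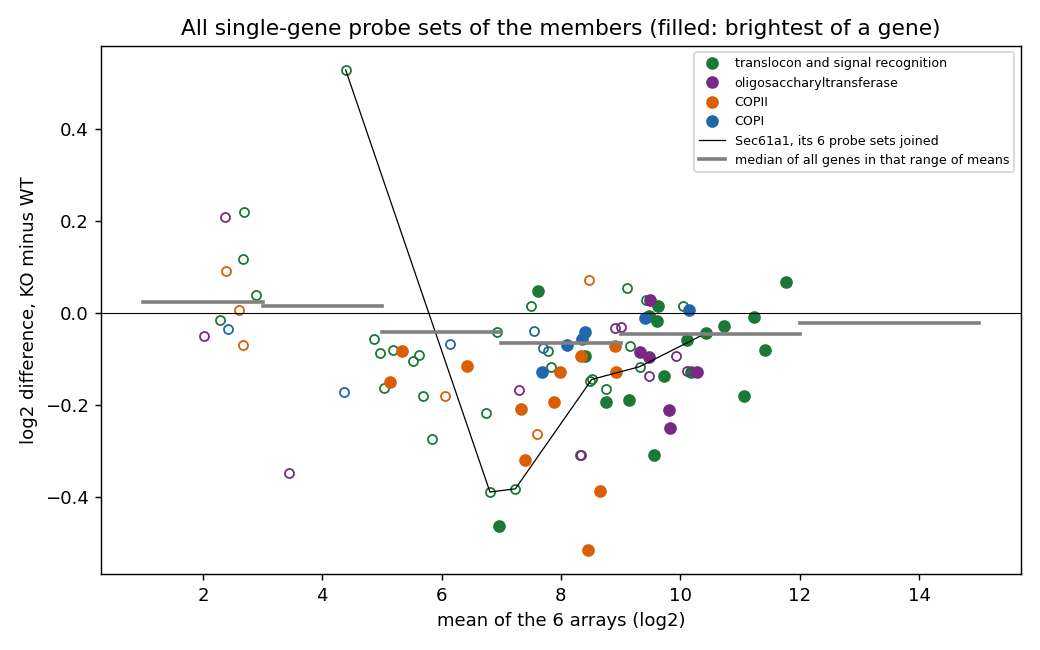
Log2 difference KO minus WT against the mean of the 6 arrays for all 93 probe sets, with the brightest of each gene filled, the 6 probe sets of Sec61a1 joined by a line, and grey bars for the median of all genes in each range of means. The grey bars lie above 0 for dim genes and below 0 from a mean of 5 upward, and the dimmest Sec61a1 probe set is the highest point, at 0.53.

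In the oligosaccharyltransferase, which transfers a preformed sugar tree to the growing chain, 5 of 6 genes were lower and 1 higher, with a median of -0.11, beside 68.1% lower among genes of mean 7 or more, and KO and WT overlapped in each gene. Its catalytic subunits had the lowest differences. Stt3b, which also modifies sites that were skipped during entry, measured 9.76, 9.57 and 9.80 in KO and 10.03, 10.07 and 9.78 in WT, a difference of -0.25 (-0.50 to -0.0034, adjusted p 0.572 by limma). KO replicate 3 lay above WT replicate 3. Stt3a, which acts at the channel, measured 9.72, 9.52 and 9.86 in KO and 10.04, 9.96 and 9.73 in WT, a difference of -0.21 (-0.48 to 0.06). A second Stt3a probe set measured 8.24, 8.10 and 8.18 in KO and 8.70, 8.52 and 8.22 in WT, where KO replicate 1 exceeded WT replicate 3, and gave -0.31 with an unadjusted limma p of 0.0335.

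The shared subunits were closer to 0. Ddost measured 9.51, 9.36 and 9.44 in KO and 9.61, 9.55 and 9.43 in WT, a difference of -0.10 (-0.30 to 0.11), and Rpn2 differed by -0.09. Dad1, whose name comes from its defence against cell death, differed by 0.03, with 9.45, 9.44 and 9.62 in KO and 9.48, 9.49 and 9.44 in WT. Rpn1 measured 10.04, 10.13 and 10.46 in KO and 10.46, 10.45 and 10.10 in WT, a difference of -0.13 (-0.44 to 0.19). Here KO replicate 3 stood with WT replicates 1 and 2, and WT replicate 3 with KO replicates 1 and 2, and all 5 of its bright probe sets split the arrays in this way. A dim further one, below the array medians, gave 0.21.

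COPI had the median nearest to 0, except without WT replicate 2, where it was -0.05 and that of the translocon group -0.04. Of its 6 genes 5 were lower and 1 higher, with a median of -0.05, no unadjusted p under 0.05 and overlapping groups in each gene. After the second quantile normalization 2 of the 6 were lower and the median was 0.01. Copb1, of the coat's cargo-binding part, measured 7.66, 7.52 and 7.67 in KO and 7.87, 7.73 and 7.65 in WT, a difference of -0.13 (-0.34 to 0.09, adjusted p 0.756 by limma). Copb2, of the outer part, measured 8.06, 8.00 and 8.15 in KO and 8.39, 8.01 and 8.02 in WT. Its difference of -0.07 (-0.34 to 0.19) came with 1 high array, and without WT replicate 1 it was 0.05. Copz1 differed by -0.06, Copa by -0.04 and Arcn1 by -0.01. Cope measured 10.11, 10.12 and 10.21 in KO and 10.11, 10.14 and 10.17 in WT, a difference of 0.01 (-0.18 to 0.19). For all 6 genes the 95% interval lay within a 1.5-fold change.

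Other genes of the same pathway were listed by role, 100 in all, of which 96 were measured and 0 passed by limma. Of the 96, 75 were lower and 21 higher, with a median of -0.08, and 12 had an unadjusted p under 0.05 on the lower side and 3 on the higher. Over all genes 50.2% were lower and 5.58% lower at that level, and over genes of mean 7 or more, as 51 of the 96 are, 68.1% and 8.98%. In the list of ER exit, 19 of 24 were lower, with a median of -0.12. The 2 with the smallest p were members of the p24 family, cargo receptors that cycle between ER and Golgi. Tmed5 measured 7.72, 7.47 and 7.84 in KO and 8.50, 8.14 and 8.09 in WT, without overlap, a difference of -0.57 (-0.87 to -0.26, adjusted p 0.273 by limma) that was -0.31 to -0.65 over all alternatives. Tmed7 measured 8.07, 8.17 and 8.23 in KO and 8.39, 8.43 and 8.48 in WT, also without overlap, a difference of -0.28 (-0.47 to -0.08, adjusted p 0.41 by limma).

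In the glycosylation list 23 of 26 were lower, with a median of -0.11. Ostc, a subunit of the Stt3a form of the oligosaccharyltransferase, measured 9.61, 9.59 and 9.51 in KO and 9.86, 9.72 and 9.73 in WT, a difference of -0.20 (adjusted p 0.573 by limma) that ran from -0.22 to -0.02 over the alternatives. Alg6, a glucosyltransferase of the sugar precursor, was at -0.29, or -0.37 to -0.12 over the alternatives, at a level below the upper quartile. In the retrieval list 13 of 17 were lower, with a median of -0.07. Kdelr2, a receptor that returns ER residents in COPI vesicles, measured 9.65, 9.76 and 9.83 in KO and 10.24, 9.98 and 9.90 in WT, a difference of -0.29 (adjusted p 0.496 by limma), while Kdelr1 and Kdelr3 differed by 0.00 and -0.05. The SNARE protein Stx18 differed by -0.28. In the list of other entry factors 10 of 16 were lower, with a median of -0.04. The signal peptidase subunit Sec11a was at -0.28, or -0.42 to -0.07 over the alternatives. Sec61a2 was at 0.24, or 0.02 to 0.31, at a level below the array medians.

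Of 13 regulators of this machinery 10 were lower and 3 higher. Xbp1 measured 12.08, 11.95 and 11.90 in KO and 11.64, 11.71 and 11.81 in WT. All KO values lay above all WT values, opposite to most of the machinery, and the difference was 0.25 (0.05 to 0.46, adjusted p 0.484 by limma). Its other 3 probe sets gave 0.31, 0.49 and 0.23. Ddit3, the stress factor CHOP, measured 5.08, 5.52 and 5.27 in KO and 6.48, 6.53 and 5.60 in WT, a difference of -0.91 (-1.42 to -0.40, adjusted p 0.287 by limma). WT replicate 3 stood close to the KO arrays in this gene, and leaving it out gave -1.22 (adjusted p 0.0217 by limma). WT replicate 3 was also the only WT array with high Xist, an RNA made in female cells. Leaving it out thus also changed the balance of Xist between the groups. Over all alternatives the Ddit3 difference ran from -1.22 to -0.41 and its adjusted p by limma from 0.0217 to 0.644.

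Markers of other cells also differed between the arrays. None of the 59 measured markers passed the threshold by limma. The 8 fibroblast and stellate cell markers were all lower in KO, and the log2 of their summed intensity was 11.54 to 12.04 in KO and 12.08 to 12.47 in WT, without overlap. Col3a1, the brightest, had the most weight in that sum. Taken singly, 4 of the 8 did not overlap, namely Col1a1, Col1a2, Col3a1 and Postn. The groups overlapped for Lum at -0.32, Dcn at -0.19, Pdgfra at -0.05 and Pdgfrb at -0.02. The 6 duct markers were 1 lower and 5 higher, with sums of 9.30 to 9.61 in KO and 8.94 to 9.02 in WT. Cftr, Krt7 and Slc4a4, 3 of the 6, lay below the upper quartile. Muc1, the brightest and so of most weight in these sums, measured 8.91, 9.23 and 9.29 in KO and 8.52, 8.63 and 8.51 in WT. The lower marker was the keratin Krt19, at -0.26, and Sox9 was at 0.52. The 8 markers of plasma and B cells, which also hold much ER, were 4 lower and 4 higher, with sums of 7.09 to 8.75 in KO and 7.82 to 9.74 in WT. Of these Tnfrsf17, Cd79a, Cd79b and Ms4a1 lay below the upper quartile. Of the 6 fat cell markers 5 were lower, and their sums were 9.73 to 10.42 in KO and 10.21 to 11.05 in WT, with Adipoq at 2.26 in KO replicate 1 and 5.12 to 6.99 on the other arrays. Of the 11 islet markers 10 were lower, with sums of 13.433 to 13.595 in KO and 13.590 to 13.705 in WT, which overlapped slightly. Ins2, the brightest, had the most weight there. Of the 13 acinar markers 10 were lower, with sums of 17.99 to 18.02 in KO and 18.01 to 18.03 in WT. All 13 lay close to the highest value of the table, where differences may be compressed. Their near-equal sums therefore cannot show that acinar content was unchanged. Of the 7 blood and immune markers 3 were lower, with sums of 7.18 to 8.36 and 7.97 to 8.28, and 6 of the 7, all but Lyz2, lay below the upper quartile. So did Pdgfrb, Lep, Cidec, Pcsk1 and Slc2a2 of the fibroblast, fat cell and islet lists. The part of these cells in the small differences of the secretory machinery was not tested. Xist measured 4.4, 9.1 and 9.8 in KO replicates 1, 2 and 3 and 4.3, 4.0 and 9.1 in WT replicates 1, 2 and 3. It was high in KO replicates 2 and 3 and in WT replicate 3, so the genotypes were not balanced for this mark of female tissue. With the Xist level as a covariate the members' median was -0.09 and 37 of 42 were lower.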

How the data were processed

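The authors deposited 1 table of log2 values. The submitters' processing notes name RMA and affy, without a version. Of 45101 probe sets, 64 controls were left out. In the platform annotation 34958 probe sets name 1 gene, 932 several and 9211 none. Of the probe sets that name 1 gene, 34754 had an Entrez identifier in a RefSeq table of GRCm38.p6, and took their symbol from it. Platform symbols that stood in the lists of members, companions and markers were kept. Groups came from the sample titles.

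All 45037 probe sets entered 1 linear model with moderated variances (limma 3.58.1, R 4.3.3), KO minus WT, two-sided, without covariates, with Benjamini-Hochberg adjustment and a threshold of 0.05. Intervals use 9.53 degrees of freedom. The brightest probe set over the 6 arrays stood for a gene. The number of arrays limits the precision. The p-values set a difference against the spread between these samples, with variances moderated over all probe sets. The fit was tested on simulated data with planted differences, most of them larger than those of the members. That test does not show how often differences as small as most of the members' would be found.

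The members, companion lists and markers were chosen with earlier results of these data known, so no list has a p-value. In each group the 3 genes of smallest p, the largest difference each way, discordant genes and the 2 companions of smallest p per list are named. Other members are given for completeness. Promoters were searched on both strands. Alternatives were a second quantile normalization, equal medians, array weights, a robust variance that follows intensity, dropping dim probe sets, a replicate block, each array left out, an Xist covariate, the mean of a gene's probe sets, removal of suffixed probe sets and an adjusted p under 0.1. Counts of members lower under each were added after seeing the data. Figures used matplotlib 3.10.9.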

Additional observations from a re-analysis of the deposited data

How the results depend on the processing

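Under each of the 15 alternatives, and at an adjusted p under 0.1, 0 of the members passed the threshold. The COPII genes were all lower in each alternative, 12 of 12, or 11 of 11 without suffixed probe sets. The count of all probe sets past the threshold was 44 in the main limma fit of the 6 arrays. It ran from 16 to 41 with single arrays left out, and was 22 with the Xist covariate and 25 without suffixed probe sets. With the replicate number as a block it was 33, the members' median stayed at -0.09, 37 of 42 stayed lower and 0 passed. Same-numbered arrays deviated together with correlations of 0.19, -0.03 and -0.08, so the numbers were not read as pairs. The COPI median was 0.0114 after the second quantile normalization, where 2 of 6 genes were lower. Without suffixed probe sets the translocon median was -0.13 and 3 oligosaccharyltransferase genes were lower. Fewer genes were measured there, and Rpn1, then read by its dim probe set alone, was at 0.21. Without single arrays 0 to 1 companion genes passed, the 1 being Ddit3 without WT replicate 3. Directions were followed gene by gene for 15 members only, and among these they reversed in genes near 0. Copz1 was at 0.0039 after the second quantile normalization and ran from -0.1191 to 0.0082 without single arrays, positive without KO replicate 2. Copb2 ran from -0.1351 to 0.0547, positive without WT replicate 1. Dad1 ran from -0.0282 to 0.0606, negative without KO replicate 3, and was at -0.0009 with the mean of all probe sets. Cope ran from -0.0226 to 0.0256, negative without KO replicate 3 and without WT replicate 1, and was at -0.0135 with equal medians and -0.0125 with the Xist covariate. Ssr4 was at -0.0555 with the mean of all probe sets and -0.27 without suffixed ones, where a dimmer probe set stood for the gene. The causes of the other reversals were not tested.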

Other observations

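The lean of bright genes towards lower values in KO was not limited to the secretory machinery. Of the genes with means from 7 to 9 on the log2 scale 68.7% were lower, with a median of -0.06, and of those from 9 to 12 it was 65.8%. Of the dimmest genes, with means from 1 to 3, 41.2% were lower, with a median of 0.02. The second quantile normalization moved the share among the genes of mean 7 or more from 68.1% to 50.4%.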
